A study of Caenorhabditis elegans with 9 samples.

Results

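The genes described here are the chemoreceptor genes of *C. elegans* that gave a measurable signal in whole worms. They were chosen in 3 steps. The gene symbol had to match the naming pattern of the chemoreceptor classes, which is sr followed by 1 or 2 letters, or str, then a hyphen and a number. Each gene was represented by its probe set with the highest mean, and the mean log2 value had to reach 5 in at least 1 of the ages L4, Day 6 and Day 15. The pattern matched 1325 of the 17118 genes that have their own probe set, and 40 of these reached 5. Of the 40, 16 belong to classes of chemoreceptors, and the account below is of these 16. They are set against all 1277 chemoreceptor genes on the array, which fall into 24 classes.

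The measurements come from whole-worm RNA of the wild type strain Bristol N2, grown at 20°C on *E. coli* OP50 and hybridized to GeneChip *C. elegans* genome arrays. The 3 ages were L4 larvae, which had not met the drug FUdR, and adults at Day 6 and Day 15 of adulthood, which had been kept on plates with 0.05 mg/ml FUdR to prevent eggs from hatching. Larva and adult therefore differ in FUdR as well as in age, and these cannot be told apart in a comparison with L4 larvae. Each age had 3 arrays, from 3 independently propagated populations, and each array stands for a pooled population of worms rather than for single animals. The values are log2 expression values normalized by GCRMA, so that a difference of 1 is a 2-fold difference.

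Chemoreceptors of this kind are membrane proteins with several transmembrane spans that couple to G proteins. Most of those that have been studied act in the ciliated sensory neurons of the head and tail, where they bind odorants, tastants or pheromones, and many are made in a single pair of neurons. Activated receptors signal through G protein alpha subunits and, in several neurons, through receptor guanylyl cyclases and a cyclic nucleotide-gated channel. The classes are grouped into the superfamilies Sra, Srg and Str, with further classes that stand on their own, here called solo classes. A transcript from a few cells is strongly diluted in RNA of the whole animal.

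The naming pattern also caught symbols that are no chemoreceptors. Of the other 24 genes that reached 5, 9 carry names of other proteins. These are the serpins *srp-1*, *srp-2*, *srp-6*, *srp-7* and *srp-9*, the last of which is a pseudogene in RefSeq, and *srpa-72*, *srgp-1*, *srap-1* and *srrt-1*. The remaining 15 belong to the symbol classes srlf, with 10 genes, srdf, with 3, and srdh and srfb, with 1 each, for which no description was at hand and which were therefore not counted as chemoreceptors. The highest age means of the 24 lay between 5.28 and 13.22. Of the 24, 15 reached 5 at all 3 ages, against 3 of the 16 chemoreceptor genes, where *srsx-34* counts through 1 L4 array alone. The name chemoreceptor is therefore used here for 16 of the 40 genes. Whether it fits the 15 without a description was not decided. The other 24 are left out of all counts below unless they are named.

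The arrays were alike in their overall level, with medians between 5.42 and 5.73 and between 59.8% and 61.6% of probe sets at 4 or above. L4 replicate 2 stood apart from its group. The standard deviation of the difference between 2 arrays, over the 11758 genes tested, was 1.24 and 1.04 between this array and L4 replicates 1 and 3, 0.656 between those 2, and between 0.376 and 0.461 for every pair of adult arrays of 1 age. Results that rest on this array are given with and without it.

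Few chemoreceptor genes gave a signal above background. Of 1277 on the array, 1252 (98.0%) stayed under a mean of 4, a level near background, at every age, 9 had their highest age mean between 4 and 5, and 16 (1.25%) reached 5. By comparison 62.8% of all genes reached 5, as did 47.6% of nuclear hormone receptor genes, 35.5% of F-box genes, 33.6% of C-type lectin genes and 21.9% of guanylyl cyclase genes. The median of the highest age mean was 1.84 for chemoreceptor genes and 7.18 for all genes. These values include the ones that chose the members and are a description.

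**Figure D1:**
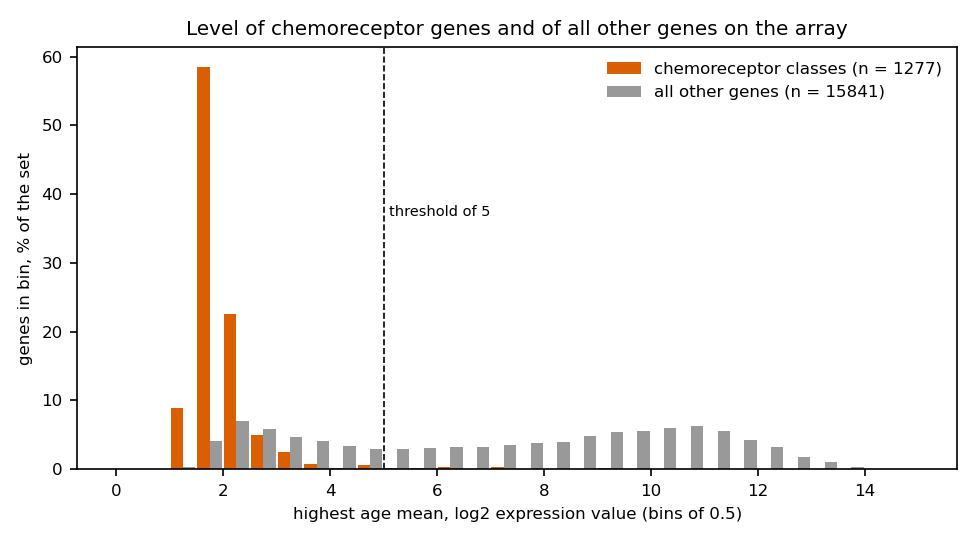
Highest age mean of each gene (log2 expression value, x axis, in bins of 0.5) as the percent of its set (y axis), for 1277 chemoreceptor genes and for all 15841 other genes on the array. Chemoreceptor genes crowd near 2 and 16 of them lie at or beyond the dashed threshold of 5, while the other genes spread over the whole range.

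The 16 genes came from 8 classes, and 16 classes had none. The Str superfamily gave 9 of its 571 genes: *str-124*, *str-131*, *str-144*, *str-168*, *str-180*, *str-245*, *sri-31*, *sri-39* and *srh-237*. The solo classes gave 4 of 281, namely *srr-3*, *srr-4*, *srsx-25* and *srsx-34*. The Srg superfamily gave *srv-1* and *srx-58*, 2 of 300, and the Sra superfamily gave *sra-14*, 1 of 125. Large classes without any detected gene were srw, with 114 genes, srbc, with 67, srt, with 64, and srz, with 58. The large srh class gave 1 of 232. Chromosome V carries 884 (69.2%) of the chemoreceptor genes and 8 of the 16 detected, II carries 3 of the 16, IV carries 2, and I, III and X carry 1 each.

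The genes differed in the age at which they were seen. The highest mean was at L4 for 6 genes, at Day 6 for 7 and at Day 15 for 3. Of the 16, 12 reached 5 at 1 age, 1 at 2 ages and 3 at all ages. Among these 3, *srsx-34* reached 5 at L4 through L4 replicate 2 alone, with 6.58 against 4.39 and 4.46. A mean of 5 at 1 age with means under 4 at both others was found for 9 of the 16 (56.3%). Among all genes that reached 5 the share was 5.73%. It was 12 of 74 (16.2%) for C-type lectin genes and 1 of 7 (14.3%) for guanylyl cyclase genes. For F-box genes it was 8 of 110 (7.27%), and for nuclear hormone receptor genes 3 of 121 (2.48%). The sets were not matched on level. These shares are read from the levels that chose the members and are a description. The standard deviation within an age ranged over the 16 genes from 0.0173 to 1.24, with a median of 0.235. In whole worms, fewer cells of a type and less RNA per cell cannot be told apart, so every value below is a level in the whole animal.

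**Figure D2:**
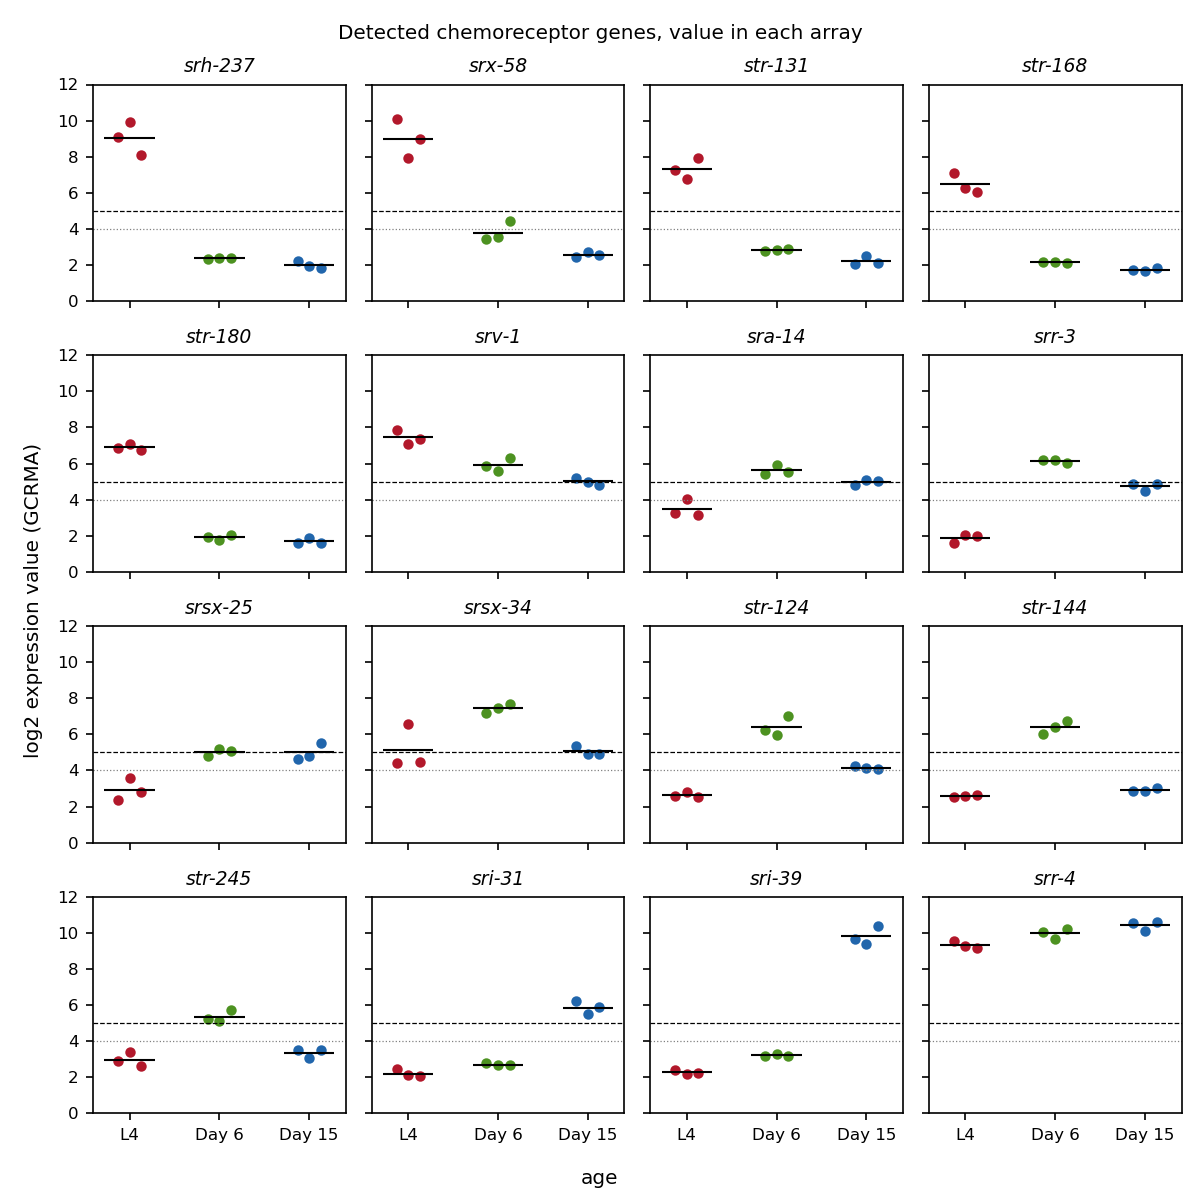
Log2 expression value (y axis) of the 16 detected chemoreceptor genes in each of the 9 arrays, by age (x axis); points are arrays, bars are means of 3, the dashed line is the threshold of 5 and the dotted line the level of 4. The top row and the first 2 panels of the second row are the 6 genes highest at L4, then come 7 highest at Day 6 and 3 highest at Day 15.

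In L4 larvae, *srh-237*, *srx-58*, *str-131*, *str-168* and *str-180* were well above background, and they reached 5 at no other age. Their adult means lay under 4. *srh-237* (T05E12.7) had values of 9.08, 9.91 and 8.10 at L4, 2.34, 2.37 and 2.37 at Day 6, and 2.19, 1.93 and 1.84 at Day 15. *srx-58* (C29F3.6) had 10.08, 7.94 and 8.98 at L4, 3.42, 3.52 and 4.42 at Day 6, and 2.42, 2.70 and 2.57 at Day 15. In both genes the 3 L4 arrays lie several units above all 6 adult arrays, and the L4 arrays spread more widely among themselves than the adult ones.

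The other genes of this group belong to the str class. *str-131* (C09H5.6) gave 7.27, 6.76 and 7.94 at L4, 2.78, 2.80 and 2.87 at Day 6, and 2.06, 2.51 and 2.12 at Day 15. *str-168* (Y9C9A.6) gave 7.07, 6.27 and 6.05 at L4, between 2.10 and 2.16 at Day 6, and between 1.63 and 1.82 at Day 15. *str-180* (T10H9.6) gave 6.87, 7.11 and 6.76 at L4, 1.95, 1.75 and 2.03 at Day 6, and 1.62, 1.88 and 1.57 at Day 15. In each of these str genes every L4 array lay above all adult arrays by more than 3 units, and the adult values are near background.

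The sixth gene with its highest mean at L4, *srv-1* (R13F6.3), stayed above background in adults. It had 7.88, 7.11 and 7.37 at L4, 5.89, 5.56 and 6.29 at Day 6, and 5.21, 4.99 and 4.82 at Day 15. The 3 ages did not overlap, and each later age lay lower. The RefSeq gene model of *srv-1* overlaps that of *zak-1*, whose own means were 6.96, 7.71 and 8.19 at L4, Day 6 and Day 15, which is the opposite order.

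The difference between Day 6 adults and L4 larvae was -6.67 for *srh-237* (standard error 0.39), -5.21 for *srx-58* (0.49), -5.0 for *str-180* (0.18), -4.51 for *str-131* (0.29), -4.33 for *str-168* (0.25) and -1.54 for *srv-1* (0.26), with n = 3 arrays per age. With values under 4 set to 4, which gives a lower bound, *srh-237* was at least 32.7-fold lower at Day 6 than at L4, *srx-58* at least 29-fold, *str-131* at least 10-fold, *str-180* at least 7.53-fold and *str-168* at least 5.51-fold. Without L4 replicate 2 the differences lay close by, at -6.23 for *srh-237* and -5.74 for *srx-58*. Since the level on these same arrays chose the genes, their changes are given with standard errors and without p-values.

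Markers of other cells and stages also differed between these ages. A gene is said to be called where limma's Benjamini-Hochberg adjusted p was under 0.05 and the difference at least 2-fold. Of 30 sperm genes tested, 27 were called lower at Day 6 than at L4, and the log2 of their summed linear values was between 14.5 and 15.6 at Day 6 and between 17 and 17.4 at L4. Of 6 amphid glia genes, 5 were called lower and 1 higher, with summed levels between 6.5 and 7.29 at Day 6 and between 9.69 and 10.6 at L4. Other lists went the other way or both ways. Of 14 genes that mark ciliated sensory neurons, 6 were called higher and 1 lower, and of 16 germline and oocyte genes 13 higher and 0 lower. Of 11 intestine genes, 1 was called higher and 5 lower, and of 13 genes used by all neurons 0 higher and 2 lower. Among all genes tested, 24.6% were called lower and 29.3% higher at Day 6 than at L4. At Day 15 the summed sperm markers were between 16.7 and 16.9, and the 5 genes near background at Day 6 were near background at that age too. The part of these markers in the L4 group was not tested.

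In adults at Day 6, 7 chemoreceptor genes had their highest mean. *str-144* (C09H5.5) was seen at this age alone, with 2.51, 2.61 and 2.65 at L4, 6.00, 6.42 and 6.75 at Day 6, and 2.87, 2.87 and 3.00 at Day 15. *str-245* (F32A7.7) had 2.92, 3.39 and 2.65 at L4, 5.21, 5.13 and 5.76 at Day 6, and 3.51, 3.07 and 3.50 at Day 15. Both genes were near background before and after Day 6, and every Day 6 array lay above every array of the other ages.

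*str-124* (T22H6.3) and *srr-3* (F36D3.3) were intermediate at Day 15. *str-124* had 2.56, 2.79 and 2.50 at L4, 6.25, 5.97 and 7.04 at Day 6, and 4.22, 4.16 and 4.07 at Day 15. *srr-3* had 1.6, 2.05 and 1.99 at L4, 6.22, 6.19 and 6.03 at Day 6, and 4.86, 4.47 and 4.86 at Day 15. In these genes the ages did not overlap in any pair, and Day 15 lay between L4 and Day 6.

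*sra-14* (F35C5.2) and *srsx-25* (Y62E10A.4) lay near the threshold in both adult ages. *sra-14* had 3.26, 4.03 and 3.15 at L4, 5.44, 5.94 and 5.51 at Day 6, and 4.82, 5.07 and 5.01 at Day 15. *srsx-25* had 2.38, 3.6 and 2.78 at L4, 4.80, 5.18 and 5.1 at Day 6, and 4.66, 4.82 and 5.52 at Day 15. The adult ages overlapped in *srsx-25* and not in *sra-14*. The gene model of *srsx-25* overlaps that of *agt-1*, an alkylguanine DNA alkyltransferase, and the model of *str-245* overlaps that of *aex-5*, a proprotein convertase.

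*srsx-34* (C25E10.3) had 4.39, 6.58 and 4.46 at L4, 7.20, 7.47 and 7.67 at Day 6, and 5.33, 4.92 and 4.93 at Day 15. Its L4 mean of 5.14 rests on L4 replicate 2, the array that stood apart, while both other L4 arrays lie under all Day 15 arrays. Day 15 minus L4 was -0.08 (standard error 0.52) with all arrays and 0.64 without that array. The gene is also the one member with more than 1 probe set of its own, and the other 2 probe sets had age means between 1.91 and 2.99. Day 6 minus L4 was 2.3 with all arrays and 3.02 without that array. With the mean of its 3 probe sets, Day 15 minus Day 6 was -0.98 and Day 6 minus L4 was 0.95, against -2.39 and 2.3 with the probe set used, and neither reached the 2-fold limit.

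Day 6 minus L4 was 4.27 for *srr-3* (standard error 0.19), 3.80 for *str-124* (0.26) and for *str-144* (0.20), 2.38 for *str-245* (0.26), 2.3 for *srsx-34* (0.52), 2.15 for *sra-14* (0.26) and 2.11 for *srsx-25* (0.34). Against L4 values set to 4 the smallest folds they allow are 5.35 for *str-124*, 5.24 for *str-144*, 4.43 for *srr-3*, 3.07 for *sra-14*, 2.58 for *str-245* and 2.04 for *srsx-25*. Over the same interval 13 of 16 germline and oocyte genes were called higher, with summed log2 levels between 15.5 and 15.7 at Day 6 and between 12.9 and 14.8 at L4, and 6 of 14 genes that mark ciliated sensory neurons were called higher and 1 lower, with summed log2 levels between 9.55 and 9.92 at Day 6 and between 8.43 and 9.1 at L4. Most sperm and amphid glia genes were called lower over this interval, as given above. The shares among all genes tested were 29.3% higher and 24.6% lower. The part of these markers in the changes was not tested.

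At Day 15, the oldest age, *sri-39* and *sri-31* stood far above both earlier ages. *sri-39* (F33H12.2) had 2.42, 2.18 and 2.26 at L4, 3.21, 3.27 and 3.21 at Day 6, and 9.70, 9.42 and 10.42 at Day 15. *sri-31* (B0454.2) had 2.46, 2.11 and 2.06 at L4, 2.79, 2.68 and 2.66 at Day 6, and 6.22, 5.50 and 5.89 at Day 15. Both belong to the sri class of the Str superfamily, of which 60 genes are on the array and 58 stayed under 5.

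The difference between Day 15 and Day 6 was 6.62 for *sri-39* (standard error 0.25) and 3.16 for *sri-31* (0.22), and that between Day 15 and L4 was 7.56 (0.25) for *sri-39* and 3.66 (0.22) for *sri-31*. With values under 4 set to 4, *sri-39* was at least 57.5-fold higher at Day 15 than at Day 6, and *sri-31* at least 3.66-fold.

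A second probe set carries *sri-39*, but it is shared with the neighbouring *sri-38* and was not used in the choice. It had 2.02, 2.12 and 2.19 at L4, 2.72, 2.41 and 2.46 at Day 6, and 8.11, 7.71 and 8.97 at Day 15. Day 15 minus Day 6 was 5.73 on this probe set (standard error 0.30, limma), with all 3 Day 15 arrays above all 3 Day 6 arrays, and no p-value is given, since it reads the same RNA that chose *sri-39*. The signal of both genes cannot be told apart on it. The probe set of *sri-38* alone had 1.67, 1.63 and 1.33 at L4, 2.12, 2.06 and 1.98 at Day 6, and 4.69, 4.59 and 4.63 at Day 15, so that it also lay higher at Day 15, under the threshold of 5.

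**Figure D3:**
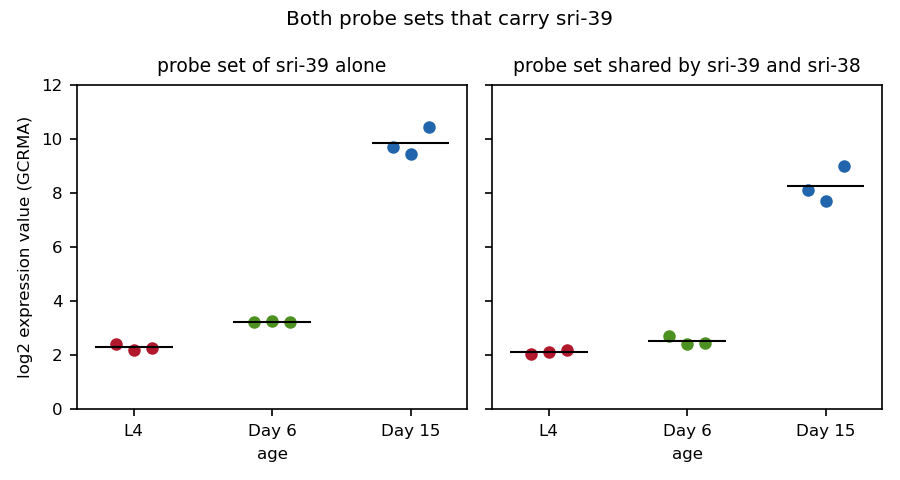
Log2 expression value (y axis) by age (x axis) on the probe set of *sri-39* alone, left, and on the probe set that *sri-39* shares with *sri-38*, right; points are arrays and bars are means of 3. On both, the Day 15 arrays lie far above the arrays of Day 6 and L4, at 9.42 or more on the left and 7.71 or more on the right.

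Over the interval in which *sri-39* and *sri-31* differed, 30 of 30 sperm genes tested were called higher at Day 15 than at Day 6, with summed log2 levels between 16.7 and 16.9 at Day 15 and between 14.5 and 15.6 at Day 6. At L4 the summed level of the sperm genes was between 17 and 17.4, and *sri-39* and *sri-31* were near background. Of the genes that mark ciliated sensory neurons, 30 are on the array and 14 reached the level needed for testing. Of these 14, 6 were called higher and 0 lower at Day 15 than at Day 6, with summed log2 levels between 10.4 and 11 at Day 15 and between 9.55 and 9.92 at Day 6. Of 13 genes used by all neurons, 0 were called higher and 3 lower, and of 11 intestine genes 0 higher and 8 lower. Of 16 germline and oocyte genes and of 6 amphid glia genes, 0 were called. Among all genes tested, 16.4% were called higher and 17% lower at Day 15 than at Day 6. The part of these markers in the changes of the 2 sri genes was not tested.

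*srr-4* (K11D12.3) was above 9 on every array, with 9.57, 9.30 and 9.17 at L4, 10.06, 9.69 and 10.21 at Day 6, and 10.58, 10.12 and 10.63 at Day 15. Day 15 minus L4 was 1.10 (standard error 0.22), and 0.91 after quantile normalization, under the 2-fold limit. The Day 15 and Day 6 arrays overlapped, with a difference of 0.46 (standard error 0.22). Its neighbour of the same class, *srr-6*, had means of 2.81 at L4, 3.36 at Day 6 and 3.51 at Day 15.

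Counts over the 16 genes are given next, beside those of all 11758 genes tested. Between Day 15 and Day 6, 2 of 16 were called higher, against 16.4% of all genes tested, and 5 of 16 lower, against 17% of all genes tested. The 2 are the sri genes. The 5 are *str-144* (-3.48, standard error 0.20), *srsx-34* (-2.39, 0.52), *str-124* (-2.27, 0.26), *str-245* (-2.01, 0.26) and *srr-3* (-1.42, 0.19), all of which had their highest mean at Day 6.

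Between Day 6 and L4, 7 of 16 were called higher, against 29.3% of all genes tested, and 6 lower, against 24.6%. Between Day 15 and L4, 7 were called higher, against 32.3%, and 6 lower, against 26.7%. The 6 lower genes are those with their highest mean at L4 in both comparisons. The 7 higher at Day 15 are *sri-39*, *sri-31*, *srr-3* (2.85, standard error 0.19), *srsx-25* (2.08, 0.34), *str-124* (1.53, 0.26), *sra-14* (1.49, 0.26) and *srr-4*. With values under 4 set to 4, *str-124*, *sra-14* and *srr-3* fell under the 2-fold limit in that comparison, at 0.15, 0.96 and 0.73, which leaves 4. A gene that reached 5 at 1 age and stayed near background at another had to differ between them, and nothing is read from these counts.

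The arrays of the 2 ages did not overlap in 2 genes higher and 11 lower at Day 15 than at Day 6, against 34.5% and 33.5% of all genes tested. The 11 include *srh-237*, *srx-58*, *str-131* and *str-168*, whose means were under 4 at both adult ages. With values under 4 set to 4, their differences were -0.14 for *srx-58* and 0 for the others. The corresponding counts are 10 and 6 for Day 6 against L4, where the background was 39.6% and 32.6%, and 8 and 6 for Day 15 against L4, where it was 41.1% and 32.5%. The 10 include *sri-31* and *sri-39*, and the 8 include *str-144*, each with both means under 4. The median difference of the 16 genes was -0.63 for Day 15 minus Day 6, 0.79 for Day 6 minus L4 and 0.35 for Day 15 minus L4. Over all genes tested the medians were 0.00, 0.17 and 0.23 in the same order. With values under 4 set to 4, the medians of the 16 genes were -0.083, 0.32 and 0.

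**Figure D4:**
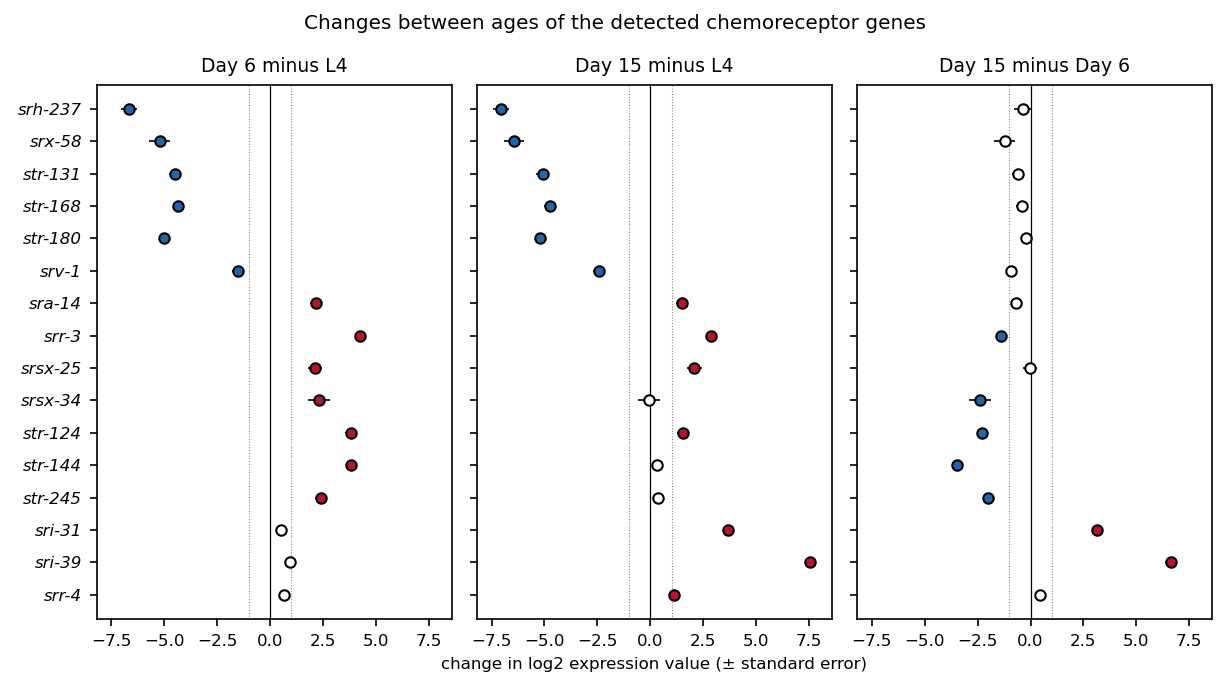
Difference in log2 expression value (x axis, bars are standard errors) of the 16 detected chemoreceptor genes (y axis) in the comparisons Day 6 minus L4, Day 15 minus L4 and Day 15 minus Day 6; filled points were called, red for higher and blue for lower in the later age, open points were not, and dotted lines mark a 2-fold difference. The 6 genes at the top are lower in both adult ages than at L4, and *sri-39* and *sri-31* stand out to the right in both comparisons of Day 15.

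The set of all 1277 chemoreceptor genes is chosen by symbol alone and does not depend on the level. In a fit without the filter on low values, 8 of them (0.626%) were called higher and 9 (0.705%) lower at Day 15 than at Day 6, against 11.6% in each direction among all 17118 genes. Between Day 6 and L4, 19 (1.49%) were called higher and 11 (0.861%) lower, against 20.8% and 17.5% of all genes. Between Day 15 and L4, 23 (1.80%) were called higher and 10 (0.783%) lower, against 23.2% and 19.1%. The 2 sri genes are therefore 2 of the 8 chemoreceptor genes called higher at Day 15 than at Day 6. Most other chemoreceptor genes are near background at every age, so that a difference between ages was not detectable for them.

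The 3 genes just inside the threshold were *srsx-25*, *str-245* and *sra-14*, with highest age means of 5.03, 5.37 and 5.63. Just outside lay *srj-14*, with 5.25, 4.52 and 4.81 at Day 6, *srx-112*, with 4.36, 5.53 and 4.61 at Day 15, and *srd-63*, with 4.97, 2.90 and 6.31 at L4. Leaving out 1 array kept all 16 genes in every case and let in *srj-14* without Day 6 replicate 2, *srx-112* without Day 15 replicate 1, and *srd-63* and *srh-70* without L4 replicate 2. *srh-70* had 7.43, 2.42 and 4.23 at L4, with the lowest value again in L4 replicate 2.

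None of the detected genes is among the receptors whose neuron or ligand has been described most often. A list of 27 such receptors had 25 on the array, and 0 reached 4 or 5. Their highest age means ran from 1.40 to 3.89, with a median of 1.85, and the highest was that of *sro-1*. The diacetyl receptor gene *odr-10* has a symbol outside the naming pattern. It had 3.06, 4.16 and 3.96 at L4, 2.14, 2.55 and 1.97 at Day 6, and 4.66, 5.07 and 5.50 at Day 15. It was called higher at Day 15 than at Day 6, by 2.86 (standard error 0.33, at least 2.11-fold with values under 4 set to 4). Its mean reached the level of 4 needed for testing at Day 15 only, so no p-value is given.

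The genes tested from a list for chemosensory signalling were called in both directions. Of 43 listed, 41 are on the array and 23 were tested, among them *odr-10*, which is itself a receptor gene. The others on the array stayed under a mean of 4 at every age, so that no difference was tested for them. They include *odr-3*, *odr-1*, *daf-11*, *tax-2*, *tax-4* and *osm-9*. At Day 15, 3 were called higher than at Day 6, namely *odr-10* and the G protein alpha subunits *gpa-1* (1.21) and *gpa-16* (1.19), and 5 were called lower, which is 3 and 5 of 23, against 16.4% and 17% of all genes tested. The 5 are the alpha subunits *gpa-12* (-2.58), *gpa-4* (-1.06) and *gpa-10* (-1.0), the gamma subunit *gpc-1* (-1.29) and the receptor kinase *grk-1* (-1.32). With values under 4 set to 4, the differences were -1.84 for *gpa-12* and -0.38 for *gpa-10*, so that *gpa-10* did not reach the 2-fold limit. At Day 6, 5 of 23 were called higher and 3 lower than at L4, against 29.3% and 24.6% of all genes tested. There *gpa-10* at 0.38 and *odr-10* at -0.053 did not reach the 2-fold limit with values under 4 set to 4. The largest of these was *cng-1*, a cyclic nucleotide-gated channel subunit, with 3.12, 2.98 and 2.52 at L4, 7.92, 7.96 and 8.15 at Day 6, and 8.06, 7.56 and 7.52 at Day 15. Day 6 minus L4 was 5.14 for *cng-1* (standard error 0.22) and 3.70 for *gpa-4* (0.14). Both reached the level of 4 needed for testing in adults only, so no p-value is given. Since the L4 means of both lie under 4, these sizes include values near background, and with values under 4 set to 4 *cng-1* was at least 16.1-fold and *gpa-4* at least 2.41-fold higher at Day 6 than at L4.

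Many of the detected genes sit among chemoreceptor genes that were not detected: 12 of the 16 have at least 1 other chemoreceptor gene of the array within 10 genes, and 4 have none. *str-131* and *str-144* lie in 1 run of genes, with *catp-3*, a P-type ATPase gene, next to each of them, and were highest at different ages, L4 and Day 6. The 9 other chemoreceptor genes on the array around them had highest age means between 1.65 and 3.90. Around *sri-31*, 6 others lay between 1.57 and 2.02. Around *sri-39*, 4 others lay between 2.17 and 4.64. Of these, *sri-38* alone reached 4, at Day 15, and *sri-36*, *sri-74* and *sri-77* stayed under 4 at every age.

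**Figure D5:**
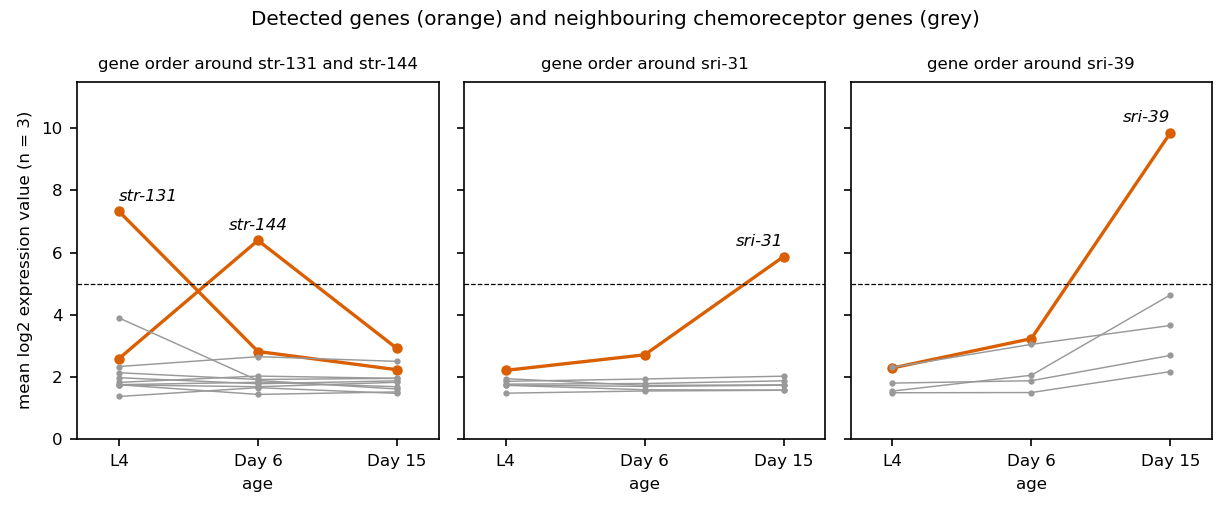
Mean log2 expression value of 3 arrays (y axis) by age (x axis) for the detected genes (orange) and for the other chemoreceptor genes on the array in the same run of genes (grey), around *str-131* and *str-144*, *sri-31* and *sri-39*; the dashed line is the threshold of 5. The grey genes stay under 5 at every age, up to 3.90, 2.02 and 4.64 from the left panel to the right.

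Some neighbours that are not chemoreceptors were highest at L4, beside genes of more than 1 pattern, and others were highest at later ages. T05E12.6, beside *srh-237*, had means of 12.15 at L4, 5.19 at Day 6 and 1.98 at Day 15. *pmp-5*, a peroxisomal membrane transporter gene beside *str-180*, had 11.27, 6.64 and 3.90 at the 3 ages from L4 to Day 15, and *cest-28*, on its other side, had 4.89, 2.03 and 1.78. C09H5.7, beside *str-131*, had 8.2 at L4, 2.61 at Day 6 and 5.54 at Day 15. By contrast *fbxa-86* and Y9C9A.5, on both sides of *str-168*, stayed between 1.5 and 2.06 at every age. Beside genes with their highest mean at Day 6, *alh-13*, next to *str-124*, had 10.77 at L4, 6.88 at Day 6 and 3.77 at Day 15, *aex-5* and *unc-54*, next to *str-245*, had 9.26 and 12.27 at L4, 7.84 and 10.91 at Day 6, and 5.99 and 8.13 at Day 15, and F35C5.1, next to *sra-14*, had 7.64 at L4, 3.85 at Day 6 and 6.63 at Day 15. Other neighbours were highest at the same age as the receptor gene. From L4 to Day 15, *catp-3*, next to *str-144*, had 10.37, 12.36 and 9.55. In the same order C25E10.4, next to *srsx-34*, had 3.62, 4.56 and 3.61, and *lido-13*, next to *sri-31*, had 5.79, 9.29 and 9.79. Whether neighbours share signal with the receptor genes was not tested, and the gene order is that of RefSeq.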

How the data were processed

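RNA of whole worms was hybridized to 9 arrays, 3 each of L4, Day 6 and Day 15. For each array the authors took 100 ng of total RNA and amplified it. They obtained log2 values by GCRMA normalization (version not given in the sources used here) and deposited them as 1 table with a row for each probe set. MAS5 present calls and centring of genes, which the methods describe, were left out. The build behind the probe annotation is not given in the sources used here. Precision is limited by the number of arrays.

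Of 22625 probe sets, 20766 have 1 gene in the array's annotation, 887 several and 972 none. Probe sets shared by genes were used only where named. Names, chromosomes and gene order come from RefSeq (WBcel235), which holds 17078 of the 17118 gene IDs, the 1277 chemoreceptor genes included. Genes whose mean reached 4 in at least 1 age, 11758 in all, were tested with limma 3.58.1 in R 4.3.3 (lmFit, eBayes), in 1 fit of 3 groups, with Benjamini-Hochberg adjustment over all of them. A gene was called at an adjusted p under 0.05 and at least 2-fold. The spread of the L4 arrays enters every standard error. The procedure was tested on simulated data. Tables and figures were made in Python 3.11.15, with pandas 2.3.3, numpy 2.4.6 and, for plots, matplotlib 3.10.9.

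The members, the marker and signalling lists and the rule for named genes, which takes the largest called changes, the highest means, the genes at the threshold and described receptors, were chosen with earlier results of these data known, and with 16 members all are named. *srh-70* and neighbouring genes were named after their values were seen. Alternatives changed the filter, the probe set, the floor, the scaling, the variance model, the arrays fitted, the test, the threshold and the detection rule, left out each array, and added the replicate number as a blocking factor. Probe sequences and promoter or protein sequences were not analysed here.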

Additional observations from a re-analysis of the deposited data

How the results depend on the processing

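The detection rule mattered most. A threshold of 4 gave 25 genes, 4 of them called higher at Day 15 than at Day 6. A threshold of 6 gave 12 genes, with 1 called higher at Day 15 than at Day 6, 4 higher at Day 15 than at L4 and 4 higher at Day 6 than at L4, and median differences of -1.27 for Day 15 minus L4 and -0.45 for Day 6 minus L4. A mean of at least 5 over all 9 arrays gave 5 genes, with 1 higher and 1 lower for Day 15 against Day 6, 2 and 2 for Day 15 against L4, and 1 and 2 for Day 6 against L4. All 40 matching symbols gave 4 higher and 11 lower, 17 and 10, and 18 and 10 in the same comparisons. With values under 4 set to 4, the median was -0.083 for Day 15 minus Day 6 and 0.32 for Day 6 minus L4, and 4 genes stayed called higher at Day 15 than at L4.

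Leaving out 1 array kept between 16 and 18 members. It gave 2 called higher and 5 to 6 lower for Day 15 against Day 6, 7 to 8 higher and 6 lower for Day 6 against L4, and 7 higher and 6 lower for Day 15 against L4. Median differences ran from -0.72 to -0.55, from 0.74 to 0.88 and from 0.28 to 0.61 in that order. Day 15 minus Day 6 of *srsx-25* was -0.03 with all arrays and ran from -0.29 to 0.14 with 1 array left out, above 0 without Day 6 replicate 2 (0.05), Day 6 replicate 3 (0.01), Day 15 replicate 1 (0.14) or Day 15 replicate 2 (0.06). Day 15 minus L4 of *srsx-34* was -0.083 in the fit reported, 0.09 with arrays centred on their medians and 0.16 after quantile normalization, and ran from -0.46 to 0.64 with 1 array left out, the highest without L4 replicate 2. None of these reversed values was called. Of the single-gene values, 985 kept their direction and call, 7 lost a call, 9 gained one and 7 reversed. Causes were not tested.

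Deviations from the age means correlated from -0.06 to 0.19 between arrays of different ages with the same replicate number. With different numbers the correlations ran from -0.22 to 0.15. The labels do not say that equal numbers share a population, and the numbers were not taken as pairs. With the replicate number as a block, 2 genes were called higher and 5 lower for Day 15 against Day 6, 7 and 6 for Day 6 against L4, and 7 and 6 for Day 15 against L4, as without it.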

Other observations

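Probe sets shared by several genes were not used in the choice of genes. Of 95 such probe sets that carry a chemoreceptor gene, 2 reached a mean of 5. One is the probe set of *sri-39* and *sri-38*. The other is shared by *chca-1* and *srm-3*, and had 10.64, 10.54 and 10.20 at L4, 4.34, 4.45 and 4.93 at Day 6, and 4.22, 4.53 and 4.28 at Day 15. Day 6 minus L4 was -5.89 on it (standard error 0.22, limma), with every adult array under every L4 array. The probe set was picked because it reached 5, which it did at L4 only, so no p-value is given. The table does not show which of these genes gave the signal.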
